A study of Mus musculus with 8 samples.

Results

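The SOCS inhibitors and PIM kinases are gene families that cytokine signals switch on in T cells. The members described here were 10 genes matched by exact symbol in the count tables: Socs1, Socs2, Socs3, Socs4, Socs5, Socs7, Cish, Pim1, Pim2 and Pim3, out of 24421 genes in all. They were measured by 3′ RNA-seq, which counts reads near the 3′ end of each transcript, in mouse CD8+ T cells that had been naive and were then activated for 48 hours on plates coated with antibodies against CD3 and CD28. The 4 control libraries carry the genotype label LKB1 wild type, and the other 4 carry the label LKB1-deficient. LKB1 is the product of Stk11, a kinase upstream of AMPK and the AMPK-related kinases. The sources used here give no strain, age or allele and do not say how LKB1 was removed, and no label ties a library to a separate animal, so p-values measure the spread between these libraries, which may be technical.

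Cytokines such as IL-2, IL-6 and interferon-gamma bind receptors that carry Janus kinases (JAKs). The JAKs phosphorylate STAT transcription factors, which enter the nucleus and induce target genes. SOCS proteins, with CIS (encoded by Cish), are feedback products of this pathway: each has an SH2 domain that binds phosphorylated receptors or kinases and a SOCS box that recruits a ubiquitin ligase, and SOCS1 and SOCS3 also block JAKs directly. PIM kinases are serine/threonine kinases induced by the same signals. They need no activating phosphorylation, so their amount largely sets their activity, and they are known for promoting survival, growth and protein synthesis in lymphocytes.

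STAT dimers bind a palindrome with a short spacer, and a search for its letters shows where the members' promoters hold it. RefSeq windows of 300 bases around the start (GRCm38.p6), from 250 bases before it, were at hand for 7 members. Socs2, Socs5 and Socs7 had no window. The motif TTCNNNGAA, which reads the same on both strands, occurred in the windows of Socs3 and Cish and in no other member's window, and 8.3% of all 32851 windows held it. These stretches of 30 bases are shown because they hold the matches, which are in capitals, 5′ to 3′ on the strand of the gene.
Socs3, chr11:117969501-117969530, minus strand: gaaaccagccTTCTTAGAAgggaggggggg
Cish, chr9:107296654-107296683, plus strand: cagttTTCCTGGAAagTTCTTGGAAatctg
The Socs3 match began 154 bases before the RefSeq start, in a stretch that none of the 3 GENCODE transcripts of Socs3 has as exon. The 2 Cish matches lay at the RefSeq start itself, where 1 of 5 GENCODE transcripts of Cish has an exon. The same palindrome with a spacer of 1 more base occurred in no member's window and in 6.95% of all windows. The cyclic AMP response element TGACGTCA likewise occurred in no member's window and in 1.79% of all windows. Its core, TGACG on either strand, occurred in the windows of Cish and Socs4 and in 20.8% of all windows. A match is a string of letters and not a measured binding site.

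The libraries held 7090252 to 12211930 gene counts in the control group, against 3454388 to 6356125 without LKB1, and single members had between 14 and 3046 counts in a library. Stk11 itself was at 67.8 to 101 CPM in control and 64.4 to 107 CPM in LKB1-deficient libraries. Since no label says where the gene was cut, these 3′ counts do not check the genotype. CPM values are gene counts brought to a common library size by the TMM method. On the first principal component, LKB1-deficient replicates 2 and 4 lay at 51.7 and 54.4, apart from LKB1-deficient replicates 1 and 3 at 12.5 and 6.79 and from the controls at -37.9 to -21.7. The summed markers of CD8 T cells were 4785 to 5141 CPM in control and 3143 to 4253 CPM in LKB1-deficient libraries, with all 8 detected. The 8 mast cell and basophil markers, all detected, summed to 9.09 to 12.2 CPM in control, 14.6 CPM in LKB1-deficient replicates 1 and 3 each, and 39.9 and 32.3 CPM in replicates 2 and 4. Summed markers of CD4 and regulatory T cells were 29.3 to 47.1 CPM in control and 7.87 to 34.2 CPM in LKB1-deficient libraries (5 of 5 detected), B cell markers 7.23 to 12.6 and 4.56 to 7.88 CPM (4 of 5 detected, Pax5 at 0), myeloid markers 8.18 to 12.7 and 8.63 to 18.4 CPM (9 of 9), and NK cell markers 111 to 135 and 137 to 208 CPM (5 of 5). Within the NK list, Eomes was at 65.9 to 151 CPM and Gzma at 8.26 to 114 CPM over all libraries. Klre1 was at 7.66 to 13.2 CPM, and Ncr1 and Klrb1c reached at most 0.58 and 2.04 CPM. Within the CD4 and regulatory list, Ctla4 was at 1.75 to 40 CPM and Zbtb7b at 2.7 to 8.02 CPM. Cd4, Foxp3 and Cd40lg reached at most 1.17, 0.58 and 2.7 CPM.

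Which SOCS and PIM transcripts differed between activated cells with and without LKB1 was asked with edgeR's quasi-likelihood test, with Benjamini-Hochberg adjustment over all 10396 genes tested. Socs2, Socs3, Socs7, Pim1 and Pim3 rose in LKB1-deficient cells, by 3.23-, 2.75-, 1.74-, 2.81- and 1.51-fold. Socs1, Socs4, Socs5, Cish and Pim2 did not pass an adjusted p of 0.05. All 10 members passed the filter on low counts and were tested, so 5 of 10 rose and none fell, while of all tested genes 22.5% passed, 12.4% higher and 10.1% lower. At an unadjusted p under 0.05, 6 members were higher and 1, Pim2, was lower. The DESeq2 Wald test called 5 members higher and Pim2 lower, and limma-voom called 5 higher and none lower. The median log2 fold change was 0.60 over the members and 0.00 over all tested genes. Without both LKB1-deficient replicates 2 and 4, the libraries that lay apart, 2 members rose (Socs3 and Pim1) and none fell, and only 260 genes passed in all. In bulk RNA, a change in the share of cells that make a transcript and a change in the amount per cell cannot be told apart.

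**Figure D1:**
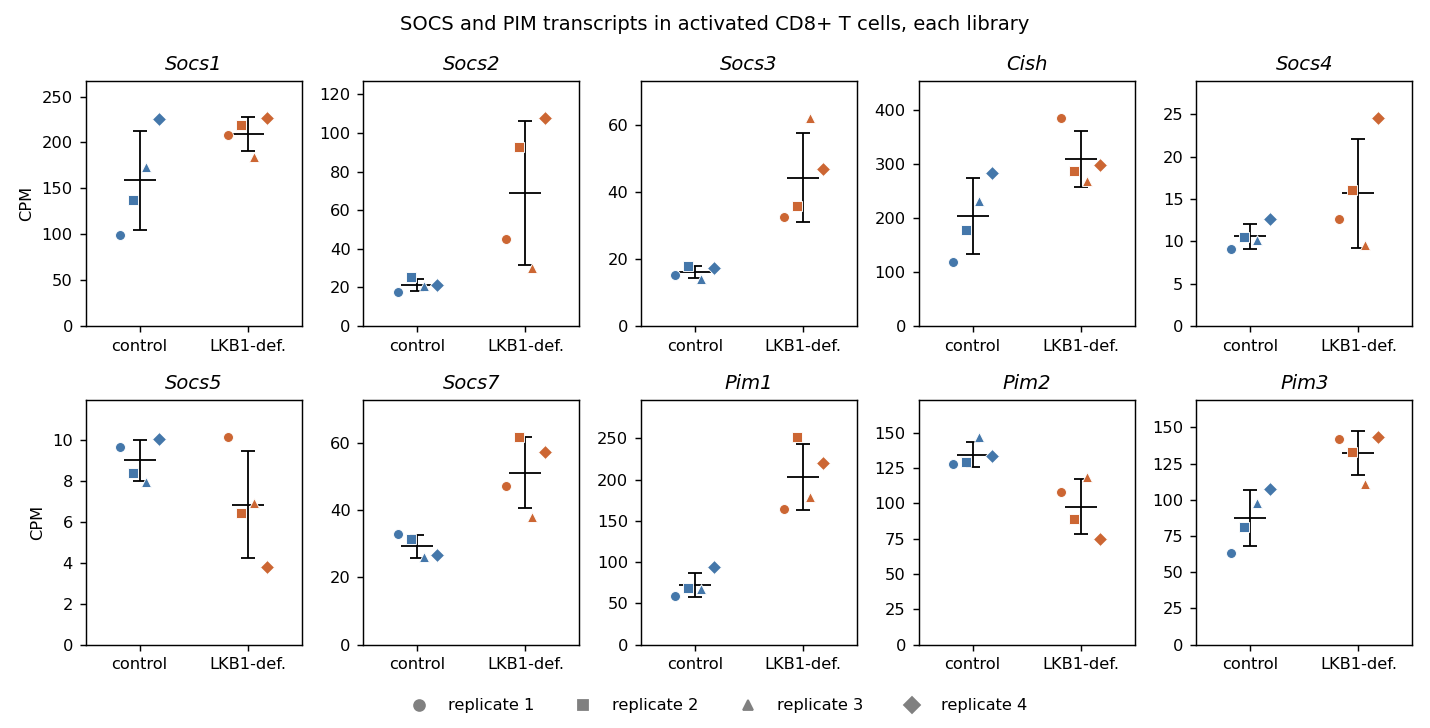
CPM of the 10 members in each library, on linear axes that start at 0; each point is 1 library, its shape the replicate number, and bars give the mean ± SD of 4 libraries per group. The groups did not overlap for Socs2, Socs3, Socs7, Pim1 and Pim3, which were higher in LKB1-deficient libraries, and for Pim2, which was lower.

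**Figure D2:**
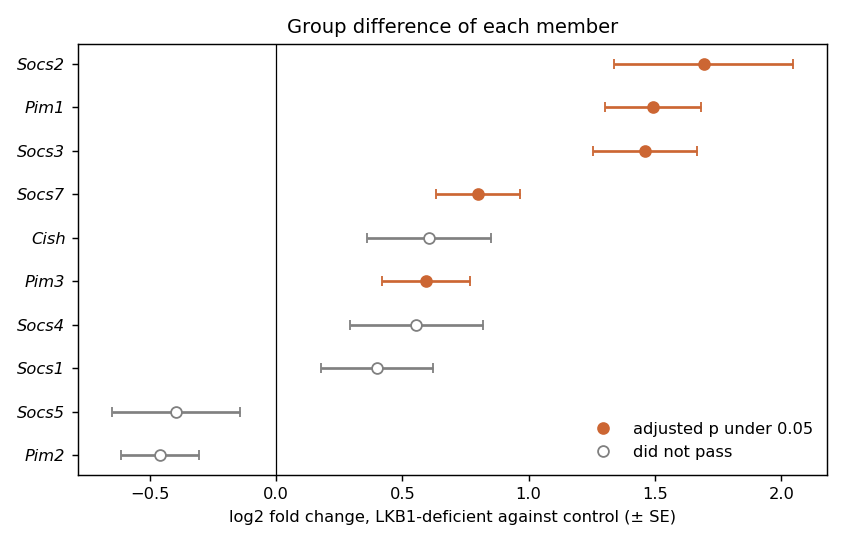
Log2 fold change of each member, LKB1-deficient against control, with bars of 1 SE; filled points passed an adjusted p of 0.05. The values ran from -0.46 for Pim2 to 1.69 for Socs2.

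Among the SOCS genes that cytokines are best known to induce, Socs3 showed the smallest p. Socs3, whose product binds the gp130 receptor chain and blocks signalling by IL-6 family cytokines, spans bases 117966079 to 117970047 of chromosome 11 (minus strand) of GRCm38. With values of single libraries given in the order of replicates 1 to 4 here and below, Socs3 was at 15.2, 18, 14.2 and 17.4 CPM across the control libraries, against 32.4, 35.8, 61.9 and 46.6 CPM across those without LKB1. The lowest LKB1-deficient library thus stood well above the highest control, and the highest was replicate 3, one of the libraries that lay nearer the controls. Its log2 fold change was 1.46 ± 0.20 (SE, adjusted p = 0.00341), rank 78 by p among all tested genes. The value was 1.55 in the libraries whose identifiers start with EU (replicates 2 to 4 of both groups) and 1.09 in the single pair whose identifiers start with ET (replicate 1), for which there is no test. It was 1.56 without both LKB1-deficient replicates 2 and 4 (adjusted p = 0.0359).

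Socs2, whose product limits growth hormone and other STAT5 signals, spans bases 95385362 to 95417180 of chromosome 10 (minus strand). It was at 17.5, 25.2, 20.7 and 21.3 CPM across the control libraries, against 45, 93, 29.9 and 108 CPM across those without LKB1. The controls were close together, whereas the LKB1-deficient libraries spread widely, with replicates 2 and 4 far above replicates 1 and 3. The standard deviation of its log2 CPM was 0.87 in LKB1-deficient and 0.21 in control libraries. Socs2 had the highest fold change of the members, with a log2 fold change of 1.69 ± 0.36 (adjusted p = 0.0123). Without LKB1-deficient replicates 2 and 4 it was 0.82 and did not pass (adjusted p = 0.0738). The mast cell and basophil marker sum was higher in the same 2 libraries, and its part in the Socs2 values was not tested.

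Socs1, whose product blocks the JAKs of interferon and common gamma chain receptors, spans bases 10782240 to 10785536 of chromosome 16 (minus strand). It was at 99.2, 137, 174 and 225 CPM across the control libraries, against 208, 219, 184 and 226 CPM across those without LKB1. Here the spread lay among the controls, and control replicate 4 reached the level of the LKB1-deficient libraries. On the log2 scale the difference was 0.40 ± 0.22 (adjusted p = 0.205). Its adjusted p was between 0.0701 and 0.553 under the 22 processing alternatives.

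Cish, whose product CIS is a STAT5-induced inhibitor known to restrain T cell receptor and IL-2 signalling in CD8+ T cells, spans bases 107296026 to 107302784 of chromosome 9 (plus strand). It was at 119, 178, 230 and 283 CPM across the control libraries, against 384, 287, 267 and 297 CPM across those without LKB1. Control replicate 4 was above LKB1-deficient replicate 3, so the groups overlapped. A log2 fold change of 0.61 ± 0.25 did not pass (adjusted p = 0.095). The ET pair differed by 1.69 on the log2 scale and the EU libraries by 0.30 (adjusted p = 0.285). Antisense genes overlap Cish and also Pim1 in the annotation. The libraries keep the strand, but no source used here says whether the counting used it, so reads of these genes may not be told apart from those of their antisense partners.

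Among the controls, replicate 1 was the lowest and replicate 4 the highest for 5 members, namely Socs1, Cish, Pim3, Pim1 and Socs4. The standard deviation of their log2 CPM among controls was 0.50, 0.54, 0.34, 0.28 and 0.20, against a median of 0.21 over all tested genes. For Socs3, Socs2, Socs7, Socs5 and Pim2 it was 0.16, 0.21, 0.17, 0.16 and 0.091. How many of all tested genes had replicate 1 lowest and replicate 4 highest among controls was not counted. That order thus cannot be read as particular to the members.

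The remaining SOCS genes are less closely tied to induction by cytokines. Socs7, whose product binds adaptor proteins and shuttles between nucleus and cytoplasm, spans bases 97362551 to 97398542 of chromosome 11 (plus strand). It was at 32.8, 31.4, 26 and 26.8 CPM across the control libraries, against 47.3, 61.8, 38.1 and 57.1 CPM across those without LKB1. The lowest LKB1-deficient library was above the highest control, and replicates 2 and 4 were again the highest. The log2 fold change was 0.80 ± 0.17 (adjusted p = 0.0123). With each library's trend on transcript length removed it was 0.41 (adjusted p = 0.0429), and without LKB1-deficient replicates 2 and 4 it was 0.54 and did not pass (adjusted p = 0.11). Its longest annotated transcript, 7015 bases, is the longest of the members.

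Socs4 and Socs5 encode proteins known for limiting epidermal growth factor receptor signals. Socs4, which spans bases 47276931 to 47296102 of chromosome 14 (plus strand), was at 9.07 to 12.6 CPM in control libraries. It was at 12.7, 16, 9.6 and 24.5 CPM in LKB1-deficient replicates 1 to 4, so replicate 3 lay inside the control range. Its log2 fold change was 0.56 ± 0.26 (adjusted p = 0.143) and passed once LKB1-deficient replicate 3 was dropped (0.74, adjusted p = 0.0437). With the trend on transcript length removed it was 0.15.
Socs5, which spans bases 87107679 to 87137839 of chromosome 17 (plus strand), had the lowest counts of the members. It was at 7.95 to 10 CPM in control libraries and at 10.1, 6.41, 6.93 and 3.77 CPM in LKB1-deficient replicates 1 to 4. LKB1-deficient replicate 1 was thus above every control while the other LKB1-deficient libraries were below every control. Socs5 had a log2 fold change of -0.40 ± 0.25 (adjusted p = 0.266), at counts of 14 to 44 in LKB1-deficient libraries.

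Of the PIM kinases, Pim1 and Pim3 rose, and Pim2 was lower but did not pass. Pim1, the family member most often studied as a STAT5 and STAT3 target, spans bases 29490753 to 29496112 of chromosome 17 (plus strand). It was at 59.4, 68.9, 67.3 and 93.9 CPM across the control libraries, against 164, 252, 179 and 220 CPM across those without LKB1. Every LKB1-deficient library was above every control. Pim1 had a log2 fold change of 1.49 ± 0.19 (adjusted p = 0.00331), rank 32 by p among all tested genes. It was 1.46 in the ET pair, 1.50 in the EU libraries and 1.25 without LKB1-deficient replicates 2 and 4 (adjusted p = 0.035).

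Pim3, a close relative of Pim1, spans bases 88862186 to 88865726 of chromosome 15 (plus strand). It was at 63.4, 81.3, 98.1 and 107 CPM across the control libraries, against 142, 133, 111 and 143 CPM across those without LKB1. The groups did not overlap, but control replicate 4 and LKB1-deficient replicate 3 nearly met. The log2 fold change was 0.59 ± 0.17 (adjusted p = 0.0368). The rise was no longer called once any 1 of 6 libraries was dropped, namely control replicates 1, 2 and 3 and LKB1-deficient replicates 1, 2 and 4 (the adjusted p then lay between 0.061 and 0.0939). In the EU libraries the log2 fold change was 0.43 (adjusted p = 0.103). Scaling by upper quartile gave 0.48 (adjusted p = 0.0747), and scaling by total count gave 0.42 (adjusted p = 0.117).

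Pim2, whose product keeps lymphocytes alive and sustains protein synthesis alongside mTOR, spans bases 7878262 to 7883432 of the X chromosome (plus strand). It was at 128, 129, 147 and 133 CPM across the control libraries, against 108, 89.2, 118 and 74.7 CPM across those without LKB1. All LKB1-deficient libraries were below all controls, with replicates 2 and 4 the lowest. Of all tested genes, 14.1% showed such a separation downward and 12.0% upward. The log2 fold change of -0.46 ± 0.15 just missed the threshold (adjusted p = 0.0558). It passed under 6 of 22 alternatives: upper quartile and total count scaling, the DESeq2 Wald test (adjusted p = 0.027), a minimum mean CPM of 10, thinned libraries, and leaving out LKB1-deficient replicate 3. The adjusted p ranged from 0.0233 to 0.329 over the 22 alternatives, and the direction was downward in each.

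A ratio of counts within a library does not depend on how the library is scaled, so it compares 2 members directly. Across the control libraries the log2 ratio of Pim1 to Pim2 counts was -1.10, -0.91, -1.13 and -0.50, and across those without LKB1 it was 0.60, 1.50, 0.59 and 1.56. Pim2 counts, not corrected for length, thus exceeded Pim1 counts in every control library, and Pim1 counts exceeded Pim2 counts in every LKB1-deficient library. The mean difference was 1.97 on the log2 scale, a 3.92-fold shift (exact two-sided permutation test, p = 0.0286, adjusted p = 0.0381 over 4 ratios). With 4 libraries against 4, 0.0286 is the smallest p this test can give.

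The ratio of Pim1 to Pim3 also moved toward Pim1, from -0.27 ± 0.19 in control to 0.61 ± 0.30 in LKB1-deficient libraries (SD, n = 4, exact permutation test, adjusted p = 0.0381). Pim1 thus rose more than Pim3. The ratio of Socs3 to Socs1 went from -3.23 ± 0.49 to -2.28 ± 0.51 (SD, n = 4, exact permutation test, adjusted p = 0.0381). Its highest control, replicate 1 at -2.70, and its lowest LKB1-deficient library, also replicate 1 at -2.68, were almost equal. The ratio of Cish to Socs2 was 3.20 ± 0.48 in control and 2.33 ± 0.91 in LKB1-deficient libraries and did not pass (SD, n = 4, exact permutation test, adjusted p = 0.2). In this ratio LKB1-deficient replicates 1 and 3, at 3.09 and 3.16, lay within the control range, and replicates 2 and 4, at 1.63 and 1.46, lay below it.

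**Figure D3:**
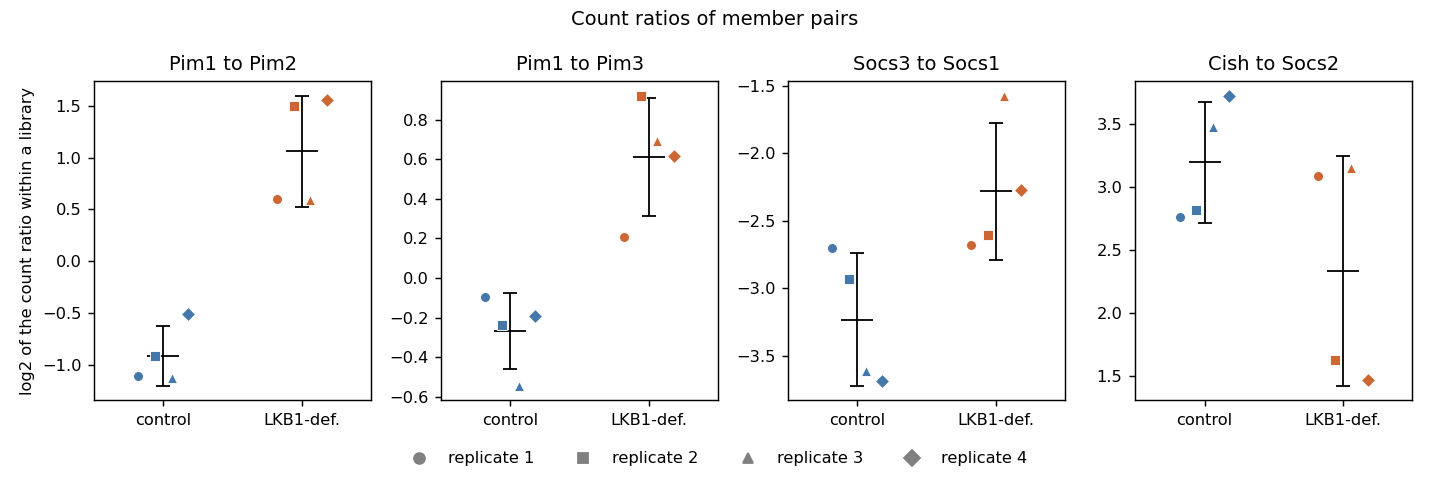
Log2 ratio of the counts of 2 members within each library, for 4 pairs; points are libraries, their shape the replicate number, and bars give the mean ± SD of 4 libraries per group. The Pim1 to Pim2 ratio was below 0 in all control and above 0 in all LKB1-deficient libraries, and the Cish to Socs2 ratio overlapped between the groups.

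LKB1-deficient replicates 2 and 4 took the same side in most members. They were both above replicates 1 and 3 for 5 members (Socs1, Socs2, Socs4, Socs7 and Pim1), both below them for 2 (Socs5 and Pim2), and mixed for 3 (Socs3, Cish and Pim3). The share of all tested genes with such an order was not counted. The same libraries lay apart on the first principal component over all tested genes, so the order cannot be read as particular to the members. In replicates 2 and 4 the summed CD8 T cell markers were also lowest, at 3176 and 3143 CPM against 3713 and 4253 CPM in replicates 1 and 3. The part of these differences in the member values was not tested.

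**Figure D4:**
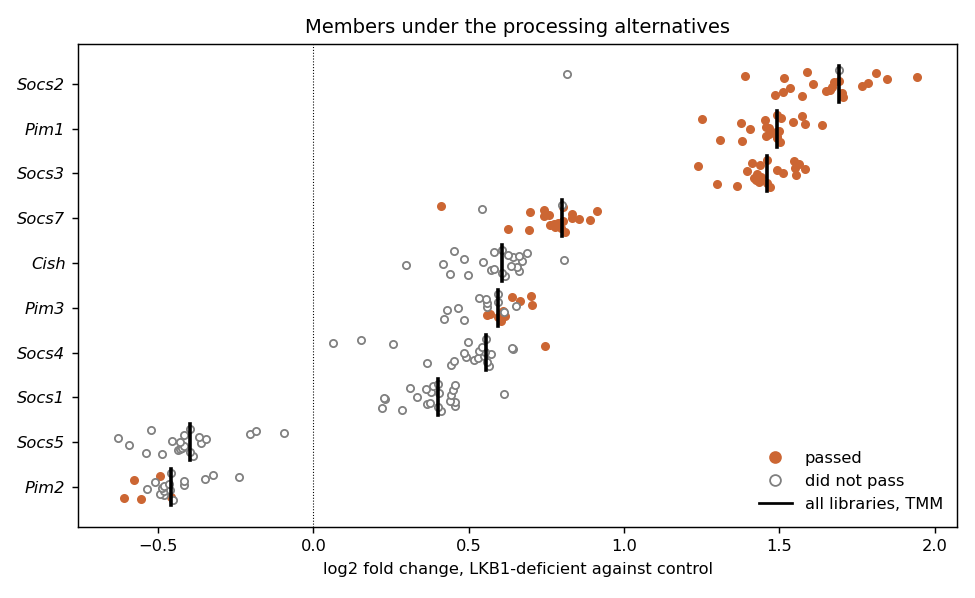
Log2 fold change of each member under each of the processing alternatives (points; filled where the threshold was passed) and with all libraries and TMM scaling (black lines). No member changed sign under the alternatives that tested it (all 22, or 21 for Socs5), and Socs3 and Pim1 passed under all 22 alternatives.

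By likeness of pattern, measured as the root mean square difference of centred log2 CPM over the 8 libraries, the genes nearest to Pim1 among 7509 compared were Lrp8 (0.15), Furin (0.16) and F2r (0.19). Those nearest to Socs3 were Tirap (0.20), Runx3 (0.24) and Zbtb41 (0.25). Those nearest to Socs2 were Cpne3 (0.26), Setd1a (0.27) and Hip1 (0.27). Socs7 had Ercc6l2 (0.05), Golm1 (0.08) and Zcchc10 (0.08) as its nearest, and Pim3 had Tnk2 (0.08), Bcl2l1 (0.10) and Il12rb1 (0.11). The median difference of all compared genes was 0.80 from Pim1, 0.77 from Socs3, 0.95 from Socs2, 0.50 from Socs7 and 0.47 from Pim3. Bcl2l1, encoding the survival protein BCL-XL, is itself a known STAT5 target.

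Upstream of the members, cytokine genes rose widely. Of 13 tested cytokine ligand genes, 12 rose and none fell in LKB1-deficient cells (none at an unadjusted p under 0.05 either, and none by DESeq2 or limma-voom), and the list's median log2 fold change was 3.30. Among them Il10, encoding an inhibitory cytokine that signals through STAT3, went from 1.03 ± 0.92 to 16.1 ± 5.47 CPM (SD, n = 4), and Il3, a growth factor of myeloid cells, from 9.01 ± 5.03 to 107 ± 44.4 CPM. Il5, Il9, Il10 and Il21 were at no more than 1.43, 2.86, 1.95 and 1.69 CPM in any control library. Il13 and Il24 were at 0.99 and 0.72 CPM in control replicate 1. All of these passed the filter on low counts only with the LKB1-deficient libraries. Such genes could hardly be called lower, so the count of 12 and the median lean upward in part through the filter. Of the tested ligand genes 92.3% were called, against 22.5% of all tested genes. The list was chosen with earlier results of these data known. The 12 became 5 without LKB1-deficient replicates 2 and 4. Of 22 receptor chains, 6 rose and 3 fell, with a median of 0.01, and without those 2 libraries 2 rose and 1 fell. With all libraries 40.9% of the chains were called, against 22.5% of all tested genes. Among the 6, Csf2rb and Csf2rb2 were at no more than 2.73 and 1.43 CPM in any control library. They too passed the filter only with the LKB1-deficient libraries. Il2ra, the IL-2 receptor alpha chain, rose from 391 ± 100 to 1090 ± 114 CPM, while Il2rg, the common gamma chain, went from 376 ± 21.8 down to 253 ± 29.9 CPM and Il15ra, which encodes the IL-15 receptor alpha chain, from 43 ± 1.74 to 18.8 ± 0.61 CPM. Il2rg was no longer called once control replicate 3 or LKB1-deficient replicate 4 was dropped (adjusted p = 0.0519 each) or the length trend was removed (adjusted p = 0.0575).

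Between receptor and target, the shares called were 25% of the Janus kinases and 28.6% of the STAT genes, near the 22.5% over all tested genes. Of 4 Janus kinases, Jak2 fell (125 ± 2.92 to 97.8 ± 5.79 CPM, adjusted p = 0.0404) and none rose, at an unadjusted p under 0.05 as well. Of 7 STAT genes, Stat5a rose from 187 ± 25.1 to 269 ± 14.1 CPM (adjusted p = 0.0233), while Stat3, at 546 ± 25.4 and 573 ± 152 CPM, and Stat5b, at 89.3 ± 12.3 and 87 ± 12.9 CPM, did not pass. The calls of Jak2 and Stat5a each ended when single libraries were left out, with adjusted p of at most 0.107 and 0.0604. For Jak2 this held for every library but LKB1-deficient replicate 3, and for Stat5a for every library but control replicate 4 and LKB1-deficient replicates 1 and 3. Stat5a was also not called with upper quartile or total count scaling (adjusted p = 0.0652 and 0.125). Without both LKB1-deficient replicates 2 and 4, no Janus kinase and no STAT gene passed in either direction.

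Of 14 other inhibitors of cytokine signals, 2 rose and 2 fell, with a median of -0.21. The share called, 28.6%, was near the 22.5% over all tested genes, and with single libraries left out 0 to 3 rose and 0 to 2 fell. None rose without control replicate 3, control replicate 4 or LKB1-deficient replicate 4, and none fell without control replicate 3, LKB1-deficient replicate 2 or LKB1-deficient replicate 4. Ptpn1, encoding the JAK phosphatase PTP1B, rose from 393 ± 61.1 to 593 ± 37.9 CPM, and Ptpn6, encoding the phosphatase SHP-1, fell from 405 ± 81.4 to 259 ± 32.1 CPM. Ptpn1 lost its call once control replicate 3, control replicate 4 or LKB1-deficient replicate 4 was dropped (the adjusted p was then at most 0.0743). Ptpn6 lost its own without any 1 of 4 libraries, namely replicates 2 and 3 of the control and replicates 2 and 4 of the LKB1-deficient group (at most 0.0791). Of 12 other genes with a SOCS box, 3 rose and none fell, with a median of -0.04. This was 25% called, near the 22.5% over all tested genes. Spsb1, an adaptor known for targeting inducible nitric oxide synthase, rose from 2.79 ± 1.33 to 15.4 ± 2.37 CPM, Asb2 from 3.39 ± 1.55 to 8.59 ± 1.25 CPM and Asb1 from 5.97 ± 0.26 to 10 ± 1.02 CPM. Spsb1, at 1.08 CPM in control replicate 1, passed the filter on low counts only with the LKB1-deficient libraries. Asb1 was not called with total count scaling (adjusted p = 0.0535), in thinned libraries (adjusted p = 0.0544) or with the length trend removed (adjusted p = 0.0874). At an unadjusted p under 0.05, 1 of these 12 was lower. Of 9 partners of the SOCS box in its ubiquitin ligase, Cul5, the cullin scaffold, rose 1.93-fold (adjusted p = 0.0224) and none fell, although 1 was lower at an unadjusted p under 0.05. That is 11.1% called, below the 22.5% over all tested genes. Cul5 lost its call without any 1 of 4 libraries, namely replicates 3 and 4 of the control and replicates 2 and 4 of the LKB1-deficient group (adjusted p at most 0.0679). Without both LKB1-deficient replicates 2 and 4, 1 of the other SOCS box genes rose, and none of the other inhibitors or of the ligase partners passed.

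Of 24 genes listed as STAT5 targets, 13 rose and 1 fell, with a median log2 fold change of 0.70, and of the 15 that stand in no other list 6 rose and 1 fell. The share called over the 24 was 58.3%, against 22.5% over all tested genes, in a list chosen with earlier results of these data known. Il10, Il24 and Prdm1, which passed the filter on low counts only with the LKB1-deficient libraries, are among the 13. Such genes could hardly be called lower, so the count of 13 and the median lean upward in part through the filter. Prdm1, encoding the effector regulator Blimp-1, rose from 1.69 ± 0.96 to 10.8 ± 1.79 CPM, and Bcl6, a repressor that opposes Blimp-1, fell from 4.73 ± 1.82 to 1.52 ± 0.63 CPM. The 13 became 5 without LKB1-deficient replicates 2 and 4, and 8 when either control replicate 3 or LKB1-deficient replicate 4 alone was dropped. Bcl6 was not called once LKB1-deficient replicate 2 was dropped (adjusted p = 0.0536). Of 18 PIM substrates and partners, 4 rose and 1 fell, with a median of 0.16. The share called, 27.8%, was near the 22.5% over all tested genes. Cdkn1a, encoding the cell cycle inhibitor p21, rose from 165 ± 76.5 to 496 ± 68.3 CPM and Cdc25a, a phosphatase that drives the cell cycle, from 166 ± 21.1 to 372 ± 79.4 CPM. Cdkn1b, encoding the inhibitor p27, fell from 56.4 ± 2.68 to 31 ± 2.58 CPM. Dropping control replicate 3, control replicate 4, LKB1-deficient replicate 2 or LKB1-deficient replicate 4 left 2 that rose, and without both LKB1-deficient replicates 2 and 4, 1 of these genes rose and 1 fell.

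**Figure D5:**
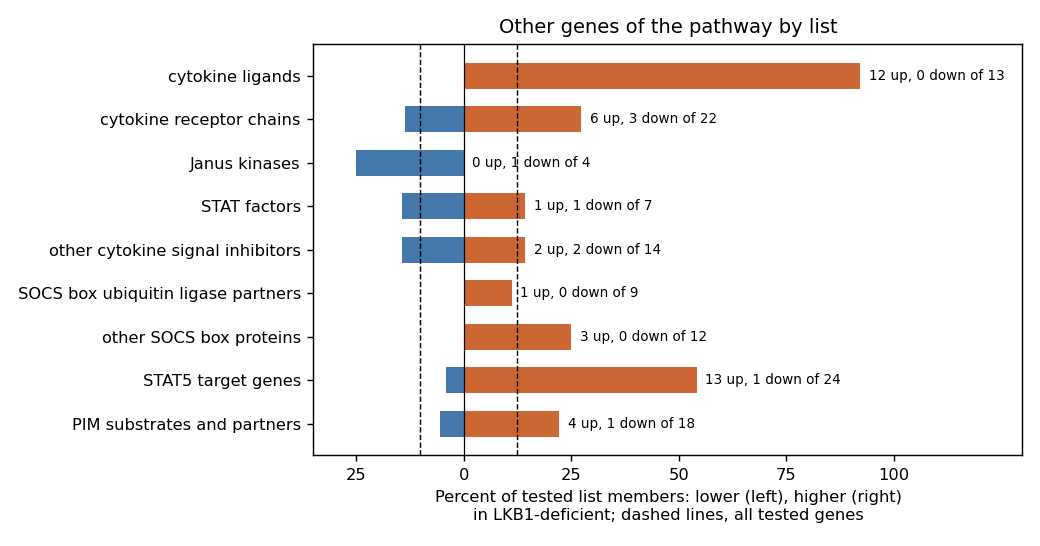
Share of tested members of each pathway list that rose (right) or fell (left) in LKB1-deficient cells, with the counts beside the bars; dashed lines mark 12.4% higher and 10.1% lower over all tested genes. Cytokine ligands (12 of 13) and STAT5 target genes (13 of 24) held the largest shares that rose, and 5 of the 18 listed cytokine ligands are also in the STAT5 target list. Some ligand, receptor and STAT5 target genes, and Spsb1, passed the filter on low counts only with the LKB1-deficient libraries. The lists were chosen with earlier results of these data known.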

How the data were processed

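The values, as the authors deposited them, are unnormalized read counts for each gene symbol, in 1 table for each of 8 libraries; per the labels' protocols these are strand-keeping 3′ libraries made with barcoded oligo-dT primers, with no molecular identifiers stated, so PCR copies may count more than once. STAR and the mm10 genome are named in the submitters' processing notes, and no source used here names the counting program. The 5 lines that name no gene were left out, and unannotated reads came to 12.1% to 17.5% of gene, ambiguous and unannotated counts together. Replicates of a group differed beyond sampling noise (chi-square at least 11.6 times its degrees of freedom), so each counted once.

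Counts were tested in R 4.3.3 with edgeR 4.0.16 (filterByExpr, minimum count 10 and total 15; TMM; robust quasi-likelihood; Benjamini-Hochberg threshold 0.05). SE is approximate, the size of the log2 fold change over the root of the F statistic. Ratios used counts plus 0.5 and exact permutation tests. Likeness used log2 CPM with a prior count of 2 and genes whose mean CPM was 10 or more. Positions and lengths come from GENCODE vM21 (GRCm38, also called mm10). Members, lists and tests were chosen with earlier results of these data known. Named were all members and, from each list, up to 3 called genes per direction by smallest p, and the 3 nearest genes of each called member; some are left out here, and Stat3 and Stat5b were added after their values were seen. The script was tested on simulated data. Alternatives were other scalings, DESeq2 1.42.0, limma-voom (limma 3.58.1), other filters, thinning to 3454388 counts, a length trend (lowess span 0.3), the replicate block, the identifier prefix, libraries left out and an adjusted p of 0.01; list counts under these were added after the data were seen.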

Additional observations from a re-analysis of the deposited data

How the results depend on the processing

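No member changed sign under any of the 22 alternatives that tested it (21 for Socs5, which a mean CPM of at least 10 left out). The count of 2337 called genes was 1011 to 2825 with single libraries left out (lowest without control replicate 3), 260 without both LKB1-deficient replicates 2 and 4 and 437 at an adjusted p of 0.01. The higher and lower calls, 1286 and 1051 with TMM, were 1023 and 1446 with upper quartile and 829 and 1576 with total count scaling, where the median of all genes shifted to -0.10 and -0.16 on the log2 scale. With either scaling 4 members rose and 1 fell. The 5 members that rose were 4 to 6 with single libraries left out, 2 without LKB1-deficient replicates 2 and 4 and 2 at an adjusted p of 0.01. The 0 members that fell became 1 (Pim2) with upper quartile and total count scaling, the DESeq2 Wald test, a mean CPM of at least 10 and thinned libraries, and were 0 to 1 with single libraries left out. With single libraries left out the ratio differences were 1.81 to 2.13 for Pim1 to Pim2, 0.77 to 1.01 for Pim1 to Pim3, 0.71 to 1.13 for Socs3 to Socs1 and -1.14 to -0.57 for Cish to Socs2. None of these passed, since the exact two-sided test cannot reach p = 0.05 with 7 libraries. Without LKB1-deficient replicates 2 and 4 the first 3 were 1.51, 0.72 and 1.11 (adjusted p = 0.178 each). As a replicate block they were 1.97, 0.88 and 0.95 (adjusted p = 0.167 each), and with 4 pairs even the unadjusted p cannot reach 0.05. In the fit over all genes the replicate block left 1902 called genes and ended the call of Pim3 (adjusted p = 0.0536). The deviations of same-numbered libraries from their group means correlated at r = -0.25, 0.29, 0.30 and -0.09 for numbers 1 to 4, across genes. Not every library correlated best with its own number. With 4 libraries per group, these values do not settle whether the numbers pair the samples. The log2 fold change of Stk11, -0.03, was 0.10 in EU libraries, 0.18 without LKB1-deficient replicates 2 and 4, 0.027 in thinned libraries and -0.22 to 0.079 with single libraries left out. The cause of these shifts was not tested. With every library thinned to the depth of the shallowest, the 5 members that rose still passed. Depth was lowest for Socs4 and Socs5, which had 45 to 91 and 14 to 44 counts in LKB1-deficient libraries, and its part in their spread was not tested.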
